A study of Mus musculus with 12 samples.

Results

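The genes described here are 10 receptors for acetylcholine, 4 muscarinic (Chrm1, Chrm2, Chrm3 and Chrm4) and 6 nicotinic (Chrna3, Chrna4, Chrna5, Chrna7, Chrnb2 and Chrnb4). They were taken by gene name from the 40912 gene IDs of the count table, in which each name matched a single ID, and 9 of them passed the filter on low counts, as did 15905 genes in all. Chrm4 did not pass, so it has values but no test. The libraries came from spinal cord of mice at postnatal day 21. In the strain Tg(Chat-EGFP/Rpl10a)DW167Htz the EGFP-tagged ribosomal protein Rpl10a is driven by Chat, which cholinergic neurons express, and in the strain Tg(Snap25-EGFP/Rpl10a)JD362Jdd by Snap25, which most neurons express. RNA bound to tagged ribosomes was pulled down over 4 h in the TRAP libraries, and the PreIP libraries hold RNA of the cord from before the pulldown. The groups TRAP_Chat, PreIP_Chat, TRAP_Snap25 and PreIP_Snap25 held 3 libraries each, and every group, inputs included, carries a transgene. The labels give neither the number of animals behind a library nor whether animals were pooled, so p-values measure the spread between these libraries, which may be technical. An input and a pulldown of the same line and replicate number share a suffix in their descriptions, whose meaning the labels do not state.

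Muscarinic receptors are single-protein receptors that act through G proteins. Those of Chrm1 and Chrm3 couple to Gq and phospholipase C, and those of Chrm2 and Chrm4 to Gi and Go, which lower cyclic AMP and open potassium channels. Nicotinic receptors are cation channels built of several subunits: Chrna4 pairs with Chrnb2 in much of the central nervous system, Chrna3 with Chrnb4 in autonomic ganglia, Chrna5 is an accessory subunit, and Chrna7 can form channels alone. In the spinal cord the Chrm2 receptor lies on motor neurons opposite large cholinergic terminals called C boutons, and motor axon collaterals excite Renshaw cells, a class of inhibitory interneuron, through nicotinic receptors.

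Chrm2, Chrna3, Chrna4 and Chrm3 are the receptor genes with a called change in the Chat line for which the promoter table had an entry, the first pair higher and the second pair lower in its pulldown. Of the 10 genes 9 were matched by symbol in that table, which did not give Chrm1. The 250 bases before each transcription start are shown from RefSeq (GRCm38.p6), 5′ to 3′ along the gene. A link between these stretches and the changes on pulldown was not tested. Capitals mark the GC box GGGCGG, searched on both strands.
Chrm2, chr6:36387834-36388083, plus strand: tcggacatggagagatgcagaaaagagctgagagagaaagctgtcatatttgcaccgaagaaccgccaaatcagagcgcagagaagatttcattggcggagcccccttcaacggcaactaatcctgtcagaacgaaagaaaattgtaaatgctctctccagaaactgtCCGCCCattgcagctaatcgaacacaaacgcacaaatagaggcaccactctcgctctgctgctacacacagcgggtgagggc
Chrna3, chr9:55026563-55026812, minus strand: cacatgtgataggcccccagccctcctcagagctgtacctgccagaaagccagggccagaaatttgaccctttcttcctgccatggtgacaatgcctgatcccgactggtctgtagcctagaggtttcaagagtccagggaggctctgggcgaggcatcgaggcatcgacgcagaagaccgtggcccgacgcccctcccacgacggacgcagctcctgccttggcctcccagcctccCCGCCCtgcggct
Chrna4, chr2:181039178-181039427, minus strand: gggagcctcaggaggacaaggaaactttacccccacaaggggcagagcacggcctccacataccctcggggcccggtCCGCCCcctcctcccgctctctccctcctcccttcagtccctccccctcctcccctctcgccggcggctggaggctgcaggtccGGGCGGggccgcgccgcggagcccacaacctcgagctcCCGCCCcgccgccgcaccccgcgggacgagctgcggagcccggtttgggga
Chrm3, chr13:10360804-10361053, minus strand: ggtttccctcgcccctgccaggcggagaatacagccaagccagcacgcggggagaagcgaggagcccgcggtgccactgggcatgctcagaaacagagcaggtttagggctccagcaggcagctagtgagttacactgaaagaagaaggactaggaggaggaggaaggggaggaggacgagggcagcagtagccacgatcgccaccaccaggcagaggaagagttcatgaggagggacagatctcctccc
The Chrna4 stretch held 3 GC boxes, those of Chrm2 and Chrna3 held 1 each and that of Chrm3 held 0, while 32.7% of the 32851 RefSeq promoter stretches of this length held at least 1. Among receptor genes not called or not tested in the Chat pulldown, Chrm4 held 3, Chrna7 1, and Chrnb2 and Chrnb4 0. The 2 stretches of Chrna5 held 0 and 4. The other motifs searched on both strands were the TATA box TATAAA (12.4% of all stretches), the homeodomain core TAATTA (4.84%) and the E-box CANNTG (66.2%). Neither TATAAA nor TAATTA was found in the 4 stretches shown, and CANNTG was found 2 times, both in Chrna3, where the 2 matches overlap each other and neither overlaps the GC box. Their GC content was 50% for Chrm2, 63.2% for Chrna3, 74.4% for Chrna4 and 61.2% for Chrm3, and the median over all stretches was 52.4%.

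Total counts ran from 10149346 to 20521699 per library, and a count of 3 in a library corresponded to between 0.156 and 0.305 CPM (counts relative to the library total, scaled by TMM, the library scaling of edgeR). Such limits cover counting error only. Chat, which makes acetylcholine, averaged 159 ± 46.4 CPM in TRAP_Chat and 22.2 ± 7.24 CPM in PreIP_Chat (SD, n = 3 each), and 25.0 ± 4.56 CPM in TRAP_Snap25 and 16.1 ± 3.06 CPM in PreIP_Snap25. All 11 cholinergic neuron markers rose in the Chat pulldown, with a summed level of 2320 to 3600 CPM in TRAP_Chat and 398 to 411 CPM in PreIP_Chat. All 8 markers of inhibitory neurons fell (129 to 246 CPM in TRAP_Chat, 821 to 899 CPM in PreIP_Chat, 926 to 1270 CPM in TRAP_Snap25, 724 to 937 CPM in PreIP_Snap25), and none of them was at 0 in any library. Of 6 markers of glutamatergic neurons 5 fell (43.5 to 50.5 CPM in TRAP_Chat, 131 to 150 CPM in PreIP_Chat, 157 to 213 CPM in TRAP_Snap25, 118 to 149 CPM in PreIP_Snap25). Of the markers of oligodendrocytes 9 of 9 fell, of their precursors 7 of 7 tested, of astrocytes 8 of 8, of microglia 6 of 8, of vessels and meninges 5 of 8, of Schwann cells and sensory neurons 3 of 6 tested, and of skeletal muscle 3 of 7 tested. The 8 muscle markers summed to 5.62, 324 and 30.7 CPM in PreIP_Chat and to 6.18, 46 and 6.98 CPM in TRAP_Chat. Replicate 2 was the highest in both groups, and pulldown and input overlapped for all 7 tested muscle markers. Of 9 genes of neurons in general 3 rose. Single pulldown libraries stood apart in the markers. TRAP_Snap25 replicate 3 had 5290 CPM of oligodendrocyte markers, against 2150 and 1710 CPM in replicates 1 and 2. It had 808 CPM of cholinergic markers, against 399 and 388 CPM in those replicates. TRAP_Chat replicate 1 had 5910 CPM of oligodendrocyte markers, against 2170 and 3140 CPM in replicates 2 and 3. TRAP_Chat replicate 2 held all 97 counts of the sensory neuron marker Scn10a in its group (7.33 CPM). It also held 49 of the 56 TRAP_Chat counts of Avil, another such marker. Trpv1 and Mrgprd, also sensory, had 0 counts in TRAP_Chat. In PreIP_Chat, replicate 2 held 66 of 69 Scn10a counts. RNA of the mitochondrial ribosome took 6.67% of the counts in TRAP_Chat replicate 1, against 0.303% and 0.358% in its fellow replicates and 23.2 to 26.2% in PreIP_Chat. In the Snap25 line it took 0.209 to 0.68% in TRAP_Snap25, and 25.3, 40.7 and 33% in PreIP_Snap25 replicates 1, 2 and 3. TRAP libraries hold RNA bound to tagged ribosomes, and PreIP libraries hold RNA of the cord. Which cells gave an RNA, how much each held and how much was ribosome-bound cannot be told apart in these bulk libraries.

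**Figure D1:**
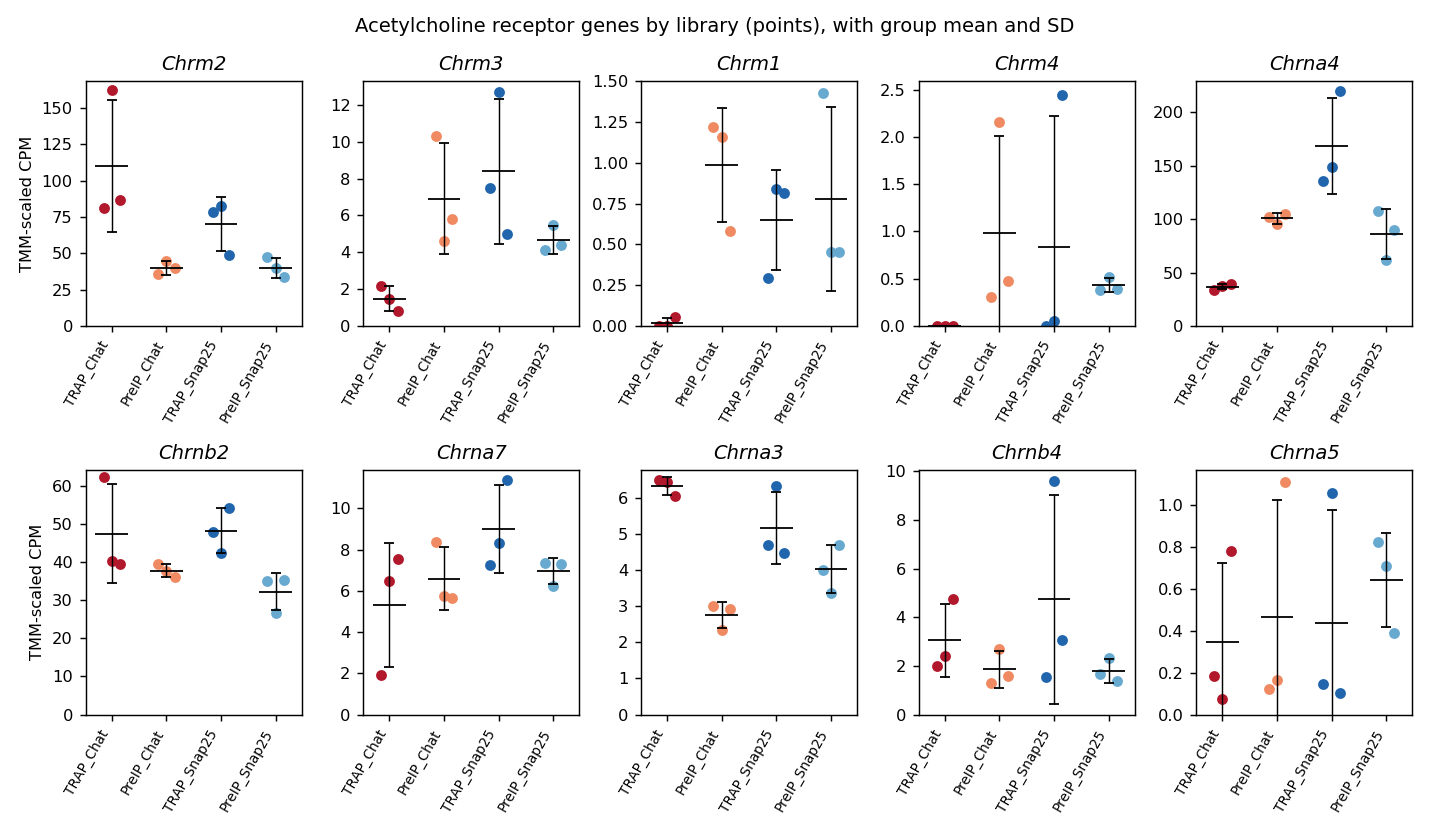
TMM-scaled CPM of each receptor gene (vertical axis, its own scale per gene) in the 12 libraries by group, with points for libraries, a line for the group mean and bars for the SD (cut at 0, n = 3). Chrna4 and Chrm3 were lower in all 3 TRAP_Chat libraries than in any library of another group, and Chrm2 was highest in TRAP_Chat replicate 2.

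In the Chat pulldown 2 receptor genes rose (Chrm2 and Chrna3), 3 fell (Chrna4, Chrm3 and Chrm1) and 4 did not pass the test (edgeR, adjusted p under 0.05 over all tested genes). Over all 15905 genes 26.9% were called in this comparison, 12.6% higher and 14.3% lower. Libraries of pulldown and input did not overlap for 5 of the 9 tested receptor genes and for 47.9% of all genes. The median log2 fold change was -0.31 over the 9 tested receptor genes and -0.06 over all tested genes.

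Chrm2, the receptor of C boutons, stood at 80.9, 162 and 86.8 CPM in TRAP_Chat, against 35.4, 44.7 and 39.7 CPM in PreIP_Chat. Every pulldown library was above every input, and TRAP_Chat replicate 2 was by far the highest. That library also held the sensory neuron marker counts given above, and their bearing on its Chrm2 level was not tested. The rise was 2.76-fold (log2 1.46 with SE 0.29, edgeR adjusted p = 0.00195), and over 22 alternatives it lay between 1.12 and 1.64. In the Snap25 line Chrm2 had 78.7, 82.4 and 48.6 CPM in TRAP_Snap25 and 47.2, 39.6 and 33.4 CPM in PreIP_Snap25. These libraries did not overlap either, though replicate 3 of the pulldown came close to the inputs, and the change of 0.80 on the log2 scale (SE 0.29) missed the threshold (edgeR adjusted p = 0.0549, from 0.0176 to 0.173 over the alternatives). With the replicate number as a block it passed (log2 0.78, edgeR adjusted p = 0.0258). Set directly against each other, the pulldowns overlapped: TRAP_Chat was 1.57-fold TRAP_Snap25 (log2 0.65, 95% interval 0.05 to 1.26, edgeR adjusted p = 0.194). Between the lines the change on pulldown differed by 0.66 on the log2 scale (Chat line minus Snap25 line, 95% interval -0.20 to 1.52, edgeR adjusted p = 0.594). Of the Chrm2 exon bases in GENCODE M21, 142 (2.35%) overlap 9330158H04Rik on the opposite strand.

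Chrm3 encodes a Gq-coupled receptor and ran the other way. It had 2.16, 1.44 and 0.833 CPM in TRAP_Chat, against 10.3, 4.6 and 5.82 CPM in PreIP_Chat. The pulldown was below the input in every library, a 4.66-fold fall (log2 -2.22 with SE 0.51, edgeR adjusted p = 0.00469). In the other line it had 7.49, 12.7 and 4.98 CPM in TRAP_Snap25 and 4.12, 5.50 and 4.37 CPM in PreIP_Snap25, which overlapped (log2 0.85 with SE 0.48, edgeR adjusted p = 0.219). TRAP_Chat was 5.69-fold lower than TRAP_Snap25 with no overlap (edgeR adjusted p = 0.00727, and 0.0519 in a fit of those 6 libraries alone). Between the lines its change differed by -3.07 ± 0.70 on the log2 scale (Chat line minus Snap25 line, SE, edgeR adjusted p = 0.0425). That call ended when any of 10 of the 12 libraries was left out (all but TRAP_Chat replicate 1 and TRAP_Snap25 replicate 3), with adjusted p up to 0.147 and differences between -3.46 and -2.64 over all alternatives.

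Chrm1 and Chrm4 were near the limit of detection. Chrm1, the other Gq-coupled gene, had 0, 0 and 1 counts in TRAP_Chat, against 20, 21 and 11 in PreIP_Chat, and 4, 15 and 8 counts in TRAP_Snap25, against 26, 7 and 7 in PreIP_Snap25. The single count in TRAP_Chat put its summed level 47.4-fold below PreIP_Chat (exact 95% counting interval 8.14 to 1910) and 31.7-fold below TRAP_Snap25 (5.23 to 1300). It passed the test as lower against PreIP_Chat (edgeR adjusted p = 0.00451) and against TRAP_Snap25 (adjusted p = 0.0278, and between 0.0193 and 0.0854 over the alternatives, with the call lost without TRAP_Chat replicate 1 or 2, TRAP_Snap25 replicate 2, or PreIP_Chat replicate 1 or 2). The difference between the lines did not pass (edgeR adjusted p = 0.134). Within GENCODE M21, 329 exon bases of Chrm1 (5.07%) overlap an exon of Gm22820 on the opposite strand.

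Chrm4, which couples to Gi, was not detected in the Chat pulldown. It had 0, 0 and 0 counts in TRAP_Chat and 5, 39 and 9 in PreIP_Chat, most of them in replicate 2. In TRAP_Snap25 it had 0, 1 and 24 counts, almost all of them in replicate 3, and in PreIP_Snap25 7, 8 and 6. Since 1 library held most of the counts in PreIP_Chat and in TRAP_Snap25, no fold is given.

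Chrna4, the principal partner of Chrnb2 in the brain, changed in opposite directions in the pulldowns. It had 34.1, 37.1 and 39.4 CPM in TRAP_Chat, against 102, 95.3 and 105 CPM in PreIP_Chat, and the 3 pulldown libraries lay close together far below the inputs. The fall was 2.73-fold (log2 -1.45 with SE 0.25, edgeR adjusted p = 0.000696). In the Snap25 line it had 136, 149 and 220 CPM in TRAP_Snap25, against 108, 61.6 and 89.9 CPM in PreIP_Snap25. Here each pulldown library lay above each input, a 1.94-fold rise (log2 0.96 with SE 0.25, edgeR adjusted p = 0.0112), which missed the threshold without PreIP_Snap25 replicate 2, the lowest input (log2 fold change 0.76, edgeR adjusted p = 0.0678).

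Between the pulldowns Chrna4 was 4.56-fold lower in TRAP_Chat than in TRAP_Snap25 (log2 -2.19 ± 0.26, SE, edgeR adjusted p = 0.00011), the gene with rank 22 by p-value among 15905. In that comparison 3 receptor genes were lower and 0 higher, against 2.77% and 3.97% of all genes and 6.75% in either direction, and the pulldowns did not overlap for those 3 or for 19.8% of all genes. Its change between input and pulldown differed by -2.41 ± 0.35 between the lines (log2, SE, edgeR adjusted p = 0.00551), with rank 8 by p-value. That test called 2 of the 9 receptor genes, both lower, and 1.04% of all genes, 0.604% higher and 0.44% lower. Over the alternatives this difference lay between -2.60 and -2.16 and kept its call in all 21 of them. Chrna4, Chrm3 and Chrm1 fell in TRAP_Chat together with the markers of inhibitory and glutamatergic neurons and of glia given above, and the part of those cells in the receptor values was not tested. The summed level of the 9 oligodendrocyte markers overlapped between the pulldowns (2170 to 5910 CPM in TRAP_Chat and 1710 to 5290 CPM in TRAP_Snap25). So did that of the 8 astrocyte markers (680 to 1190 CPM in TRAP_Chat and 1080 to 1860 CPM in TRAP_Snap25). Of these, Aldoc alone averaged 591 CPM in TRAP_Chat and 1200 CPM in TRAP_Snap25. The summed levels of inhibitory and glutamatergic neurons did not overlap. By gene, edgeR called 8 of 8 inhibitory and 2 of 6 glutamatergic markers lower in TRAP_Chat than in TRAP_Snap25. It called 0 of 9 oligodendrocyte markers, and 1 of 8 astrocyte markers higher and 1 lower.

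**Figure D2:**
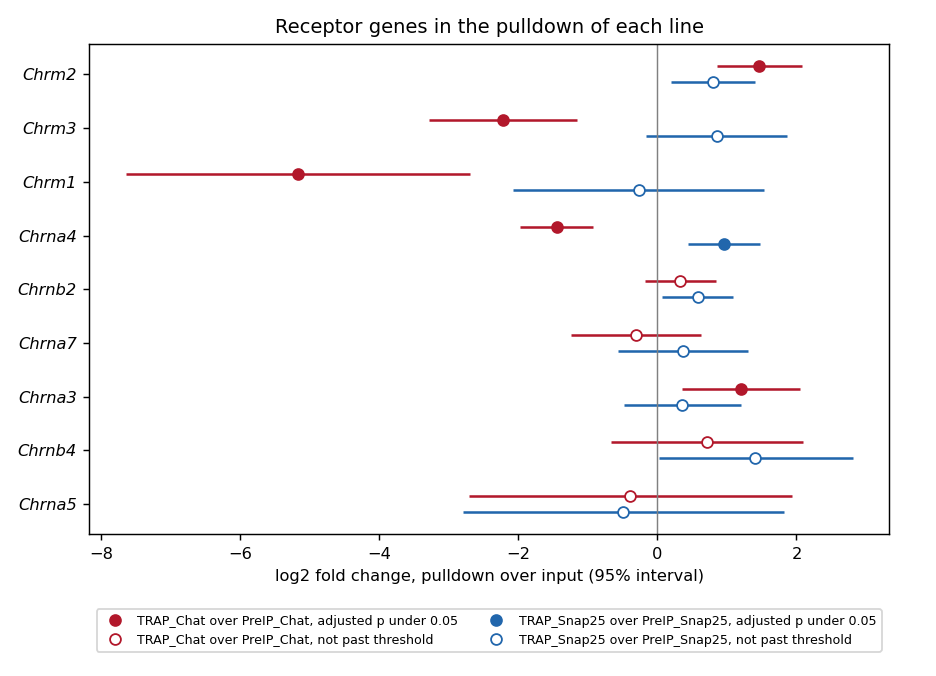
Log2 fold change of pulldown over input for the 9 tested receptor genes in each line, with 95% intervals derived from the edgeR F statistic and filled points for adjusted p under 0.05. Chrna4 lies at -1.45 in the Chat line and at 0.96 in the Snap25 line, with intervals that do not overlap.

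Chrnb2, the partner subunit of Chrna4, did not pass the test in any comparison. It stood at 62.4, 40.4 and 39.4 CPM in TRAP_Chat and at 39.5, 37.6 and 36.0 CPM in PreIP_Chat, which overlapped by a small margin. The log2 fold change was 0.33 (95% interval -0.18 to 0.84, edgeR adjusted p = 0.331). It had 48.0, 42.4 and 54.2 CPM in TRAP_Snap25, above the 34.9, 26.6 and 35.3 CPM in PreIP_Snap25 in every library, but did not pass there (log2 fold change 0.58, 95% interval 0.07 to 1.09, edgeR adjusted p = 0.0981). The pulldowns of the lines differed by -0.02 on the log2 scale (95% interval -0.53 to 0.49, edgeR adjusted p = 0.973), a value that turned positive without TRAP_Chat replicate 2 or 3 or TRAP_Snap25 replicate 3.

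As counts of Chrna4 per count of Chrnb2, the libraries gave 0.547, 0.918 and 1 in TRAP_Chat, against 2.57, 2.53 and 2.91 in PreIP_Chat. The corresponding ratios were 2.83, 3.52 and 4.06 in TRAP_Snap25, against 3.10, 2.32 and 2.54 in PreIP_Snap25. All TRAP_Chat ratios lay below all others. Values of Chrnb2 carry an uncertainty, since 1365 of its exon bases in GENCODE M21 (16.3%) overlap Adar, an RNA-editing enzyme gene on the opposite strand, and the strand setting of the counting is not given. Adar averaged 74.3 ± 1.85 CPM in TRAP_Chat and 79.1 ± 6.33 CPM in PreIP_Chat, and 114 ± 10.4 CPM in TRAP_Snap25 and 69.5 ± 9.06 CPM in PreIP_Snap25 (SD, n = 3 each), rising in the Snap25 line (log2 fold change 0.72, edgeR adjusted p = 0.0175).

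**Figure D3:**
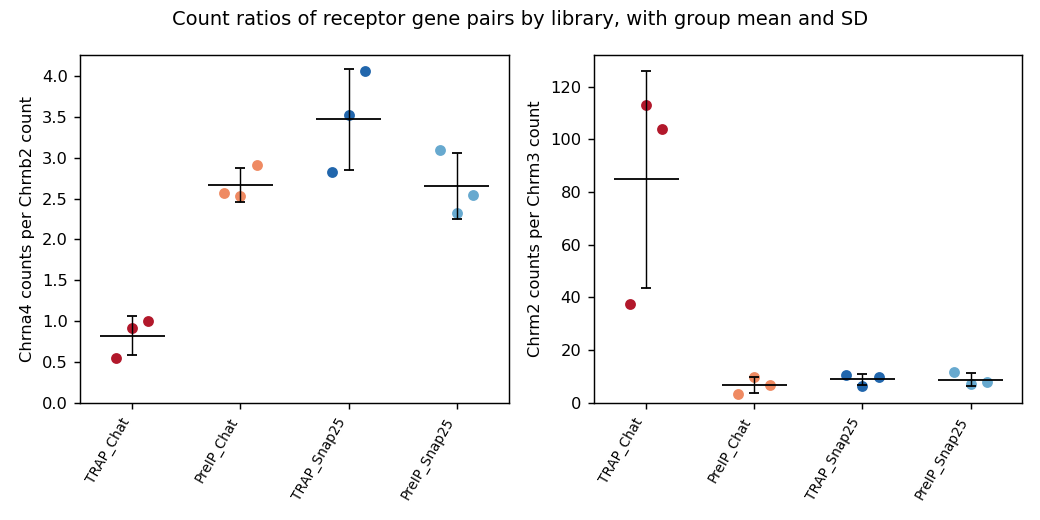
Ratios of raw counts within each library, Chrna4 per Chrnb2 (left) and Chrm2 per Chrm3 (right), by group, with points for libraries, a line for the mean and bars for the SD (n = 3). Chrna4 per Chrnb2 reached at most 1 in TRAP_Chat and at least 2.32 elsewhere, and Chrm2 per Chrm3 was at least 37.4 in TRAP_Chat and at most 11.5 elsewhere.

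Chrna3, Chrnb4 and Chrna5 are neighbours on chromosome 9 in GENCODE M21 with no shared exon bases there. Chrna3 had 6.49, 6.42 and 6.04 CPM in TRAP_Chat, against 2.99, 2.33 and 2.91 CPM in PreIP_Chat. The pulldown libraries lay within a narrow band above the inputs, a 2.30-fold rise (log2 1.20 with SE 0.40, edgeR adjusted p = 0.0355). The size held between 1.09 and 1.26 over the alternatives, but the call was lost in 9 of 22, namely with no filter on low counts, with a replicate block (adjusted p = 0.0716), and without any single library of TRAP_Chat or PreIP_Chat or PreIP_Snap25 replicate 1 (adjusted p up to 0.132). In the Snap25 line it had 4.70, 6.31 and 4.47 CPM in TRAP_Snap25 and 4.01, 3.37 and 4.69 CPM in PreIP_Snap25, which overlapped (log2 fold change 0.36, 95% interval -0.48 to 1.20, edgeR adjusted p = 0.554). The pulldowns of the lines did not differ past the threshold (log2 0.29, 95% interval -0.55 to 1.12, edgeR adjusted p = 0.738), nor did the changes on pulldown in the lines (0.84, 95% interval -0.35 to 2.03, edgeR adjusted p = 0.642).

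Chrnb4, the usual partner of Chrna3 in ganglia, scattered more. It had 1.98, 2.42 and 4.74 CPM in TRAP_Chat and 1.28, 2.71 and 1.59 CPM in PreIP_Chat, with a log2 fold change of 0.71 (95% interval -0.67 to 2.09, edgeR adjusted p = 0.448). In TRAP_Snap25 the values were 1.54, 9.60 and 3.05 CPM, against 1.65, 2.33 and 1.37 CPM in PreIP_Snap25, so that a single library, replicate 2, carried the log2 fold change of 1.41 (95% interval 0.02 to 2.81, edgeR adjusted p = 0.135). Without that library it was 0.35. The accessory subunit Chrna5 had between 1 and 15 counts per library in TRAP_Chat, 2 and 21 in PreIP_Chat, 1 and 19 in TRAP_Snap25, and 6 and 15 in PreIP_Snap25. Its counts scattered widely between libraries of a group and it did not pass in any comparison, with 95% intervals of -2.71 to 1.94 in the Chat line and -2.79 to 1.82 in the Snap25 line on the log2 scale.

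Chrna7, whose subunit can form channels alone, had 1.92, 6.50 and 7.55 CPM in TRAP_Chat and 8.37, 5.76 and 5.66 CPM in PreIP_Chat. Replicate 1 of the pulldown, the library with the most mitochondrial ribosomal RNA among the TRAP libraries, stood below all others, and the groups overlapped (log2 fold change -0.31, 95% interval -1.25 to 0.63, edgeR adjusted p = 0.645). Without that library the log2 fold change was 0.09. It had 7.27, 8.32 and 11.4 CPM in TRAP_Snap25 and 7.37, 6.22 and 7.30 CPM in PreIP_Snap25 (log2 fold change 0.37, 95% interval -0.57 to 1.30, edgeR adjusted p = 0.597). TRAP_Chat against TRAP_Snap25 gave -0.75 (95% interval -1.70 to 0.19, edgeR adjusted p = 0.352).

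To compare levels between genes, CPM were divided by the length of all exons in GENCODE M21, which may differ from the annotation used for counting. In the inputs Chrna4 led, at 20 ± 0.954 CPM per kilobase in PreIP_Chat and 17.2 ± 4.66 in PreIP_Snap25 (SD, n = 3 each). Chrm2 followed at 6.59 ± 0.771 in PreIP_Chat and 6.62 ± 1.14 in PreIP_Snap25, then Chrnb2 at 4.5 ± 0.211 in PreIP_Chat and 3.85 ± 0.586 in PreIP_Snap25, with Chrna7 and the rest below 2 CPM per kilobase in every input library. TRAP_Snap25 kept that order, with Chrna4 at 33.5 ± 9.02, Chrm2 at 11.5 ± 3.06 and Chrnb2 at 5.75 ± 0.707. In TRAP_Chat Chrm2 came first at 18.2 ± 7.51, above Chrna4 at 7.34 ± 0.524 in every library. Chrna4 and Chrnb2 (5.65 ± 1.55) overlapped there, and so did Chrna3 (1.20 ± 0.0462) and Chrna7 (1.18 ± 0.665).

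As shares of the summed level per kilobase of the 10 genes, Chrm2 took 51.0% ± 10.4 in TRAP_Chat and 18.5% ± 2.13 in PreIP_Chat, and 20.8% ± 7.41 in TRAP_Snap25 and 21.0% ± 3.78 in PreIP_Snap25. Chrna4 took 21.6% ± 3.90 in TRAP_Chat and 56.1% ± 2.78 in PreIP_Chat, and 57.9% ± 8.08 in TRAP_Snap25 and 53.5% ± 5.70 in PreIP_Snap25. The make-up of TRAP_Chat stood apart from all other groups, whose shares of these 2 genes overlapped.

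**Figure D4:**
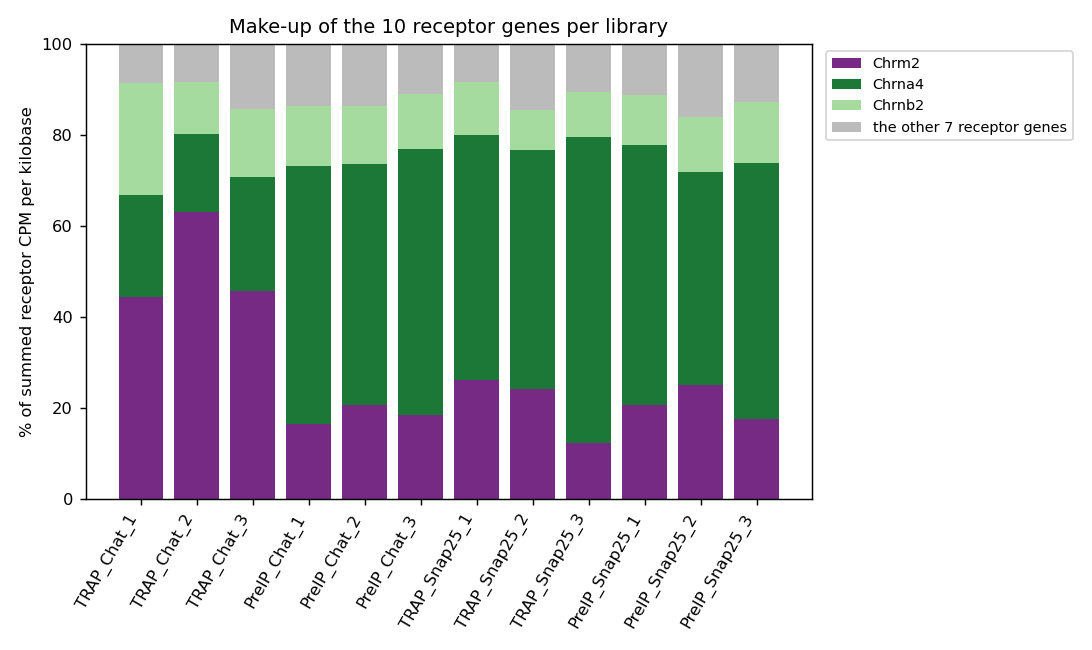
Share of the summed CPM per kilobase of the 10 receptor genes taken by Chrm2, Chrna4, Chrnb2 and the other 7, in percent, as stacked bars for the 12 libraries. Chrm2 took between 44.3% and 63.0% in the TRAP_Chat libraries, and Chrna4 between 17.3% and 25.0%.

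In the Snap25 pulldown 1 receptor gene rose (Chrna4), 0 fell and 8 of the 9 tested did not pass, where 22.4% of all genes were called, 9.69% higher and 12.7% lower. The libraries did not overlap for 3 receptor genes (Chrna4, Chrm2 and Chrnb2) and for 38% of all genes. At an unadjusted p under 0.05 edgeR gave 4 receptor genes, all higher, and 5609 of the 15905 genes. DESeq2 called 2 receptor genes, Chrm2 beside Chrna4, among 1880 genes higher and 2431 lower, and limma voom called 1, among 1653 higher and 2409 lower. Between the inputs of the lines, PreIP_Chat and PreIP_Snap25, edgeR called 0 receptor genes and 0% of all genes, with 0 receptor genes at an unadjusted p under 0.05 and 0 by DESeq2 or limma voom. The inputs did not overlap for 2 receptor genes, Chrna3 lower and Chrnb2 higher in PreIP_Chat, and for 8.04% of all genes. Their log2 differences ran from -0.55 for Chrna3 (95% interval -1.40 to 0.29) to 0.56 for Chrm3 (-0.45 to 1.57).

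The other genes of acetylcholine signalling were taken from lists of general knowledge, which were chosen with earlier results of these data known. Of the 11 other receptor subunit genes 5 passed the filter on low counts. Chrna2, which marks Renshaw cells in mice, had 0, 0 and 1 counts in TRAP_Chat, against 32, 30 and 30 in PreIP_Chat, and 21, 98 and 37 counts in TRAP_Snap25, against 40, 19 and 41 in PreIP_Snap25. Its summed level in TRAP_Chat was 83.9-fold below PreIP_Chat (exact 95% counting interval 14.7 to 3350) and 183-fold below TRAP_Snap25 (32.4 to 7290), and it passed the test as lower in both comparisons (edgeR adjusted p = 0.000511 and 0.000367). Chrm5, Chrna1, Chrnb1 and Chrnb3 did not pass in any comparison. Chrna6, Chrna9, Chrna10, Chrnd, Chrne and Chrng were not tested, and Chrna9 had 0 counts in all libraries. Chrnd, a subunit of the muscle receptor, had 14 counts in TRAP_Snap25 replicate 1, 1 in PreIP_Chat replicate 1 and 0 in the others.

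Among 14 tested genes of receptor assembly, clustering and the toxin-like proteins that bind nicotinic receptors, 3 rose and 2 fell in the Chat pulldown (median log2 fold change 0.01, against -0.06 over all genes). Lypd6, a toxin-like protein of the Ly6 family, averaged 132 ± 41.4 CPM in TRAP_Chat and 19.1 ± 4.03 CPM in PreIP_Chat, a 6.91-fold rise (edgeR adjusted p = 1.51e-05). It was 2.48-fold higher in TRAP_Chat than in TRAP_Snap25 (53.2 ± 12.8 CPM, edgeR adjusted p = 0.00938). Nptn, an adhesion molecule, rose 1.91-fold (edgeR adjusted p = 0.00418). Lypd1, a relative of Lypd6 and the gene of the list with the smallest p between the pulldowns, stood at 11.8 ± 4.77 CPM in TRAP_Chat and 27.0 ± 4.81 CPM in PreIP_Chat (2.27-fold lower, edgeR adjusted p = 0.0102), and was 3.59-fold lower than in TRAP_Snap25 (42.6 ± 9.16 CPM, edgeR adjusted p = 0.00188). In the Snap25 pulldown 5 of the 14 rose and 1 fell (median 0.74, against 0.00 over all genes).

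Of 23 tested genes of muscarinic signalling 4 rose and 3 fell in the Chat pulldown (median -0.20), and 3 rose and 2 fell in the Snap25 pulldown (median -0.02). Gna14, a G protein alpha subunit of the Gq class, averaged 61.8 ± 7.46 CPM in TRAP_Chat and 6.24 ± 1.44 CPM in PreIP_Chat, a 9.90-fold rise (edgeR adjusted p = 3.02e-05). Rgs4, which shortens signalling by Gi and Gq, averaged 545 ± 101 CPM in TRAP_Chat and 111 ± 26.5 CPM in PreIP_Chat (4.91-fold higher, edgeR adjusted p = 1.56e-05). Arrb1, an arrestin that uncouples active receptors, averaged 68.8 ± 18.4 CPM in TRAP_Chat and 221 ± 4.82 CPM in PreIP_Chat (3.22-fold lower, edgeR adjusted p = 0.000365). All 3 also passed between the pulldowns, in the same direction: Gna14 5.86-fold and Rgs4 3.18-fold higher, and Arrb1 2.85-fold lower, in TRAP_Chat than in TRAP_Snap25.

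Acetylcholine is broken down by the enzyme of Ache, which Prima1 anchors in neuronal membranes, and by the related enzyme of Bche. Of these and Colq, Ache and Prima1 rose and Bche fell in the Chat pulldown (median of the 4 genes 1.25). Prima1 averaged 71.4 ± 4.58 CPM in TRAP_Chat and 25.1 ± 2.32 CPM in PreIP_Chat (2.85-fold higher, edgeR adjusted p = 0.000511), and 14.8 ± 3.41 CPM in TRAP_Snap25 and 20.5 ± 4.44 CPM in PreIP_Snap25. In the Snap25 pulldown Ache rose 2.15-fold and Bche fell 3.46-fold (edgeR adjusted p = 0.0293 and 0.011).

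**Figure D5:**
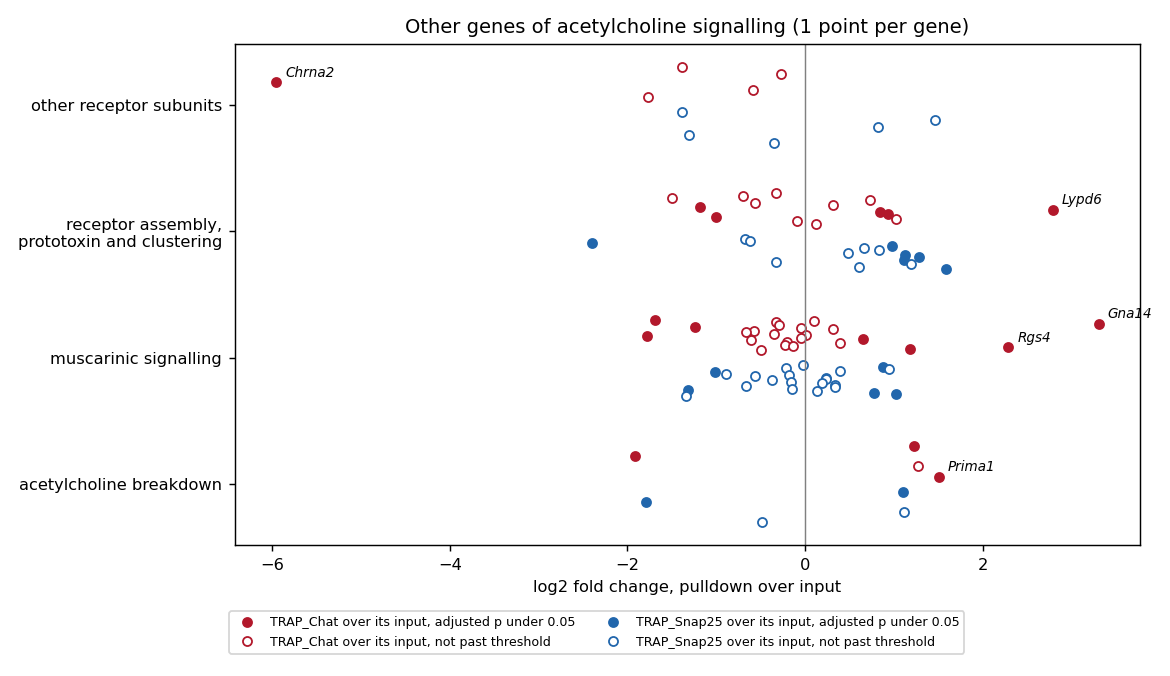
Log2 fold change of pulldown over input for the tested genes of 4 lists around the receptors (1 point per gene, both lines, filled points for adjusted p under 0.05). Chrna2 lies at -5.96 in the Chat line, a fitted value resting on 1 count, and Gna14, Lypd6, Rgs4 and Prima1 lie at 3.31, 2.79, 2.29 and 1.51.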

How the data were processed

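RNA-seq of 12 mouse spinal cord libraries was analysed from a table of raw counts per Ensembl gene, deposited by the authors without normalization. The submitters' processing notes name STAR and HTSeq. Their versions, the annotation, build and strandedness were not given in the sources used here. Of 41736 lines, 824 repeated another line exactly and were dropped, leaving 40912 gene IDs. Groups come from the sample titles, 3 libraries each.

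Counts were fitted with edgeR 4.0.16 in R 4.3.3 (filterByExpr, TMM, glmQLFit, glmQLFTest, all 12 libraries, 1 mean per group). The 5 comparisons set TRAP against PreIP in each line, TRAP_Chat against TRAP_Snap25, the change on pulldown between lines, and PreIP_Chat against PreIP_Snap25, with two-sided p adjusted by Benjamini-Hochberg over 15905 genes and a threshold of 0.05. The pipeline was tested on simulated data with a single spread for all groups. In the data the spread (common biological coefficient of variation of edgeR) was 0.479 in TRAP_Chat and 0.496 in TRAP_Snap25. It was 0.231 in PreIP_Chat and 0.285 in PreIP_Snap25. The simulation thus did not cover a spread that differs between groups. Alternatives were RLE scaling, DESeq2 1.42.0, limma 3.58.1 voom, other filters, other sample sets, a replicate block, repeated lines kept, mitochondrial ribosomal RNA left out, and each library left out. A voom fit with the pairs as a random effect was added after seeing the data.

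The receptor genes and lists were chosen with earlier results of these data known. All receptor genes are named, with at most 3 genes per other list and comparison by adjusted p. A gene of the assembly list that this rule would name is not reported here. Adar was added after its values were seen. GENCODE M21 gave exon lengths and overlaps, and placed all 21 receptor genes. Exact counting intervals are binomial at 95%. edgeR gives no SE for these tests. Each SE was derived as the absolute log2 fold change over the square root of the F statistic. The 95% intervals are the log2 fold change plus or minus that SE times a t quantile.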

Additional observations from a re-analysis of the deposited data

Results flagged for a closer look

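For 7 of 55 tested genes, the receptors and the 4 lists around them, the change from input to pulldown differed between the lines by the edgeR test of that difference itself (Chat line minus Snap25 line, log2 scale, n = 3 libraries per group, adjusted p under 0.05), where 96 of all 15905 tested genes (0.604%) were called higher and 70 (0.44%) lower. Among the receptors these were Chrna4, with a difference of -2.41 ± 0.35 (SE, adjusted p = 0.00551), and Chrm3, with -3.07 ± 0.70 (adjusted p = 0.0425). Chrna4 was lower than its input in 3 of 3 Chat pulldowns and above its input in 3 of 3 Snap25 pulldowns. Chrna2 differed by -6.78, a fitted value that rests on 1 count in TRAP_Chat. Arrb1 differed by -1.66, and Gna14, Prima1 and Rgs4 by 2.35, 1.98 and 1.52. The receptors and lists were chosen with earlier results of these data known, so 7 of 55 is no test of them against all genes. Among the marker lists 5 of 11 cholinergic genes and 2 of 9 genes of neurons in general were called higher, and 6 of 8 inhibitory and 1 of 6 glutamatergic genes lower. Chat itself differed by 2.21 (adjusted p = 0.013).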

How the results depend on the processing

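TRAP_Chat against PreIP_Chat gave 5 called receptor genes, and between 4 and 5 with a library left out or under any other alternative run. In TRAP_Snap25 against PreIP_Snap25, where 1 was called, 2 were called (Chrm2 beside Chrna4) by DESeq2, with no filter on low counts, without mitochondrial ribosomal RNA, in the replicate block and in the voom fit with pairs as a random effect, and between 0 and 2 with a library left out (0 without PreIP_Snap25 replicate 2). In TRAP_Chat against TRAP_Snap25, 3 were called, and 1 (Chrna4) in a fit of only those groups, where Chrm1 was not tested and Chrm3 missed the threshold. For the difference between lines 2 were called, and between 1 and 2 with a library left out, Chrna4 always among them. The causes were not tested.

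Over 45 values of single receptor genes, alternatives left the direction and call as they were 897 times, ended a call 26 times, added one 7 times and turned the sign 24 times. Every turned sign was of a gene that was not called, with a library left out. The log2 values with a library left out ran from -1.77 to 1.25 for Chrna5 and from -0.66 to 0.09 for Chrna7 in TRAP_Chat against PreIP_Chat, and from -0.55 to 0.49 for Chrm1 in TRAP_Snap25 against PreIP_Snap25. In TRAP_Chat against TRAP_Snap25 they ran from -1.72 to 1.45 for Chrna5, from -0.27 to 0.11 for Chrnb2 and from -1.11 to 0.42 for Chrnb4. For the difference between lines they ran from -1.27 to 1.9 for Chrna5 and from -1.18 to 0.36 for Chrnb4, and in PreIP_Chat against PreIP_Snap25 from -0.12 to 0.13 for Chrm2, -0.28 to 0.02 for Chrna7 and -0.31 to 0.30 for Chrnb4.

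Input and pulldown of a replicate number share a suffix in the labels' descriptions, and so may come from the same sample, but the labels do not say so and the suffix of Chat replicate 2 is also that of Snap25 replicate 1. The correlation of their deviations did not settle the pairing: same-numbered input and pulldown gave r = 0.060, 0.102 and 0.127 in the Chat line, each the best of its library, and -0.037, 0.167 and 0.147 in the Snap25 line. The replicate block called 4 receptor genes in the Chat pulldown (without Chrna3, whose adjusted p was then 0.0716 for Chrna3, TRAP_Chat against PreIP_Chat), 2 in the Snap25 pulldown and 2 for the difference between lines. A fixed block was not possible for the comparisons between lines, nor a fit of only the groups compared for the difference between lines.

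Among all tested genes, 632 rose and 441 fell in TRAP_Chat against TRAP_Snap25, against 237 and 145 in a fit of only those groups, 1026 and 746 by DESeq2 and 1085 and 676 with no filter. The difference between lines called 96 higher and 70 lower, against 292 and 209 by DESeq2, 269 and 184 with no filter and 168 and 142 in the paired voom fit. In the Snap25 pulldown 1541 and 2017 became 890 and 1472 in a fit of only those groups. With a library left out, in TRAP_Chat against TRAP_Snap25 they ran from 355 to 961 higher (without TRAP_Snap25 replicate 2 and replicate 3) and from 266 (without TRAP_Chat replicate 2) to 574 lower. For the difference between lines they ran from 26 higher and 26 lower without PreIP_Chat replicate 2 to 152 and 97 without TRAP_Snap25 replicate 3, and were also over 1.5-fold lower in a direction without any other PreIP library. In the Snap25 pulldown the fewest were 675 and 1298 without PreIP_Snap25 replicate 2, with 739 and 1389 without replicate 1 of that group and 950 and 1464 without TRAP_Snap25 replicate 2. The Chat pulldown, with 2005 and 2268, had between 1191 and 1315 higher and between 1547 and 1631 lower without a PreIP_Chat library. The median log2 fold change of all genes in the Chat pulldown moved to -0.14 by voom.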

Other observations

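The tested genes whose log2 CPM ran most like that of a receptor gene over the 12 libraries were looked up for the 3 most abundant receptor genes among 10156 genes averaging 5 CPM or more, predicted genes left out. The libraries share group and depth, so the correlations are descriptions. Chrm2 ran most like Herc3 (Pearson r = 0.973), Trmt10a (0.972) and Slitrk4 (0.964). Chrna4 ran most like Fbxo40 (0.950), Epn3 (0.950) and Slc30a3 (0.941), and Chrnb2 most like Adck1 (0.938), Ppp1r35 (0.917) and Slc39a13 (0.912).

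TRAP_Snap25 replicate 2 was the highest library of its group for 6 of the 9 tested receptor genes, where it was the highest for 31.0% of all tested genes. The muscle receptor subunit Chrna1 had 65 counts there, against 5 and 11 in replicates 1 and 3. The summed level of 8 skeletal muscle markers was 1.79 CPM there, against 5.58 and 6.61 CPM in replicates 1 and 3. The source of the Chrna1 counts was not tested.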
